A study of Mus musculus with 18 samples.

Results

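The chemokine genes described here are Cx3cl1, Cxcl1, Cxcl2, Cxcl5, Cxcl10, Cxcl12, Ccl2, Ccl7 and Ccl20, 9 of the 18194 genes named on the array. They were read by all 16 of the 45101 probe sets whose annotated symbol is one of these names. Cx3cl1 had 4 probe sets, Cxcl1 and Cxcl12 had 3 each, and the others had 1 each. Expression was measured on 18 Affymetrix mouse arrays of total RNA from TKO, a mouse cell line whose labels call the cells telomere dysfunctional. Cells of 1 kind expressed p53ER, in which the transcription factor p53 is joined to an estrogen receptor and waits for the drug 4-hydroxytamoxifen (4-OHT) to become active. Cells of the other kind were uninfected. The 6 groups, with 3 arrays each, were p53ER cells after 4 h with 100 nM 4-OHT, after 4 h with vehicle and at 0 h, and uninfected cells after 4 h with 100 nM 4-OHT, after 4 h with vehicle and at 0 h. All of them shared the TKO background and a medium with serum. The uninfected cells did not carry an empty vector, so infection and the fusion cannot be told apart, and the labels do not say whether the replicates were separate cultures. The spread behind the p-values may therefore be technical.

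Chemokines are small secreted proteins that guide migrating cells by binding G protein-coupled receptors. Cxcl1, Cxcl2 and Cxcl5 attract neutrophils through the receptor Cxcr2, and Ccl2 and Ccl7 attract monocytes through Ccr2. Ccl20 is the ligand of Ccr6 on lymphocytes and dendritic cells, and Cxcl10 is an interferon-induced ligand of Cxcr3 on T cells. Cx3cl1 (fractalkine) is made as a membrane-anchored protein and shed by the proteases Adam10 and Adam17. Cxcl12, a product of stromal cells, acts through Cxcr4 and retains stem cells in their niche. In fibroblasts several of these genes are switched on within hours by inflammatory signals through the transcription factor NF-kB, whereas Cxcl12 is made steadily.

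The RefSeq promoter table (GRCm38.p6, 250 bases before to 50 after each gene start) held 6 of the 9 genes: Cx3cl1, Cxcl1, Cxcl2, Cxcl10, Cxcl12 and Ccl20. A consensus site of NF-kB, searched on both strands, was found in 4 of these 6 promoters, and in 4.51% of all 32851 promoters of the table. The stretches around those sites are shown because 4 of the 6 promoters hold such a site and those of Cx3cl1 and Cxcl12 do not, with the matched bases in capitals and 20 bases on either side, 5′ to 3′ on the strand of the gene. The Cxcl1 stretch is chr5:90891154-90891204 on the plus strand, the Cxcl2 stretch chr5:90903782-90903832 on the plus strand, the Cxcl10 stretch chr5:92348963-92349068 on the minus strand and the Ccl20 stretch chr1:83116666-83116715 on the plus strand.
Cxcl1: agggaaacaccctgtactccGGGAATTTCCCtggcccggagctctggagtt
Cxcl2: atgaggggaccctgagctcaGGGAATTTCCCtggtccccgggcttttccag
Cxcl10: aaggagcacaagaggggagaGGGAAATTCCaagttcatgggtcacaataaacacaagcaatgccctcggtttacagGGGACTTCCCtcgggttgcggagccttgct
Ccl20: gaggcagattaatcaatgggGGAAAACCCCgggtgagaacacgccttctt
In Cxcl1 and Cxcl2 the capitals are the same run of bases, made of 2 overlapping matches on opposite strands, ending 61 and 87 bases before the start. Cxcl10 held 2 separate matches, and the match of Ccl20 lies on the opposite strand to the gene. The AP-1 motif TGANTCA was found in 1 of the 6 promoters, that of Cxcl10, and in 7.81% of all promoters. The motif TATAAA was found in 1 of the 6, that of Cx3cl1, and in 13.6% of all. In Cx3cl1 the match ends 1 base before the start. A p53 half-site, named only, was found in 0 of the 6 and in 8.36% of all. A match is a run of letters and not a measured binding site, and no match says only that the letters are not in this window.

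The 2% trimmed mean signal of the arrays ran from 47.5 to 148 before scaling. Values below are log2 of the scaled signal plus an offset of 4.13, so that a signal of 0 reads 2.05. On the first principal component (23.9% of the variance) 3 arrays lay apart: p53ER vehicle replicate 1, p53ER 0 h replicate 3 and uninfected 0 h replicate 2. The second (21.8%) separated the arrays numbered 3 in every group from those numbered 1 and 2, and the labels do not say what the number stands for. The p53 target genes Mdm2 and Pmaip1 rose with 4-OHT against vehicle in p53ER cells, by log2 changes of +2.92 (SE 0.41, limma adjusted p = 0.0329) and +3.38 (SE 0.52, limma adjusted p = 0.0352). In uninfected cells the same comparison gave -0.27 and -0.55 (limma adjusted p = 1 for both). All 10 mesenchymal markers were bright enough to be tested, and their summed signal lay between 44490 and 72569 on every array. The summed signals of the 8 epithelial, 9 blood and macrophage and 6 endothelial markers stayed at 173 to 307, 272 to 429 and 81.8 to 192, and 3, 6 and 2 of them were bright enough to be tested. Their mean log2 signals ran from 2.63 for Esrp1 to 6.82 for Epcam, from 3.01 for Itgam to 6.75 for Cd14 and from 2.51 for Tie1 to 5.90 for Kdr, while Cdh1, Ptprc and Pecam1 were at 2.95, 3.17 and 2.96.

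Among the probe sets of the 9 genes, 12 had a mean log2 signal above 5. The other 4 were near the offset: the probe set of Ccl20 (mean 3.95), those of Cx3cl1 named 1421610_at (4.02) and 1441884_x_at (2.87), and that of Cxcl12 named 1439084_at (4.11). Each gene was tested by its brightest probe set, and 8 of the 9 genes were among the 10916 brightest genes that were tested. Ccl20 fell below the lowest mean tested, 4.74, and its values come from a fit of all probe sets. Cxcl1 and Cxcl2 are close paralogs, and 2 of the Cxcl1 probe sets, 1457644_s_at and 1441855_x_at, are of types that can bind more than 1 transcript, so their signals may be shared. Levels are not compared between genes, since each probe set has its own brightness.

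**Figure D1:**
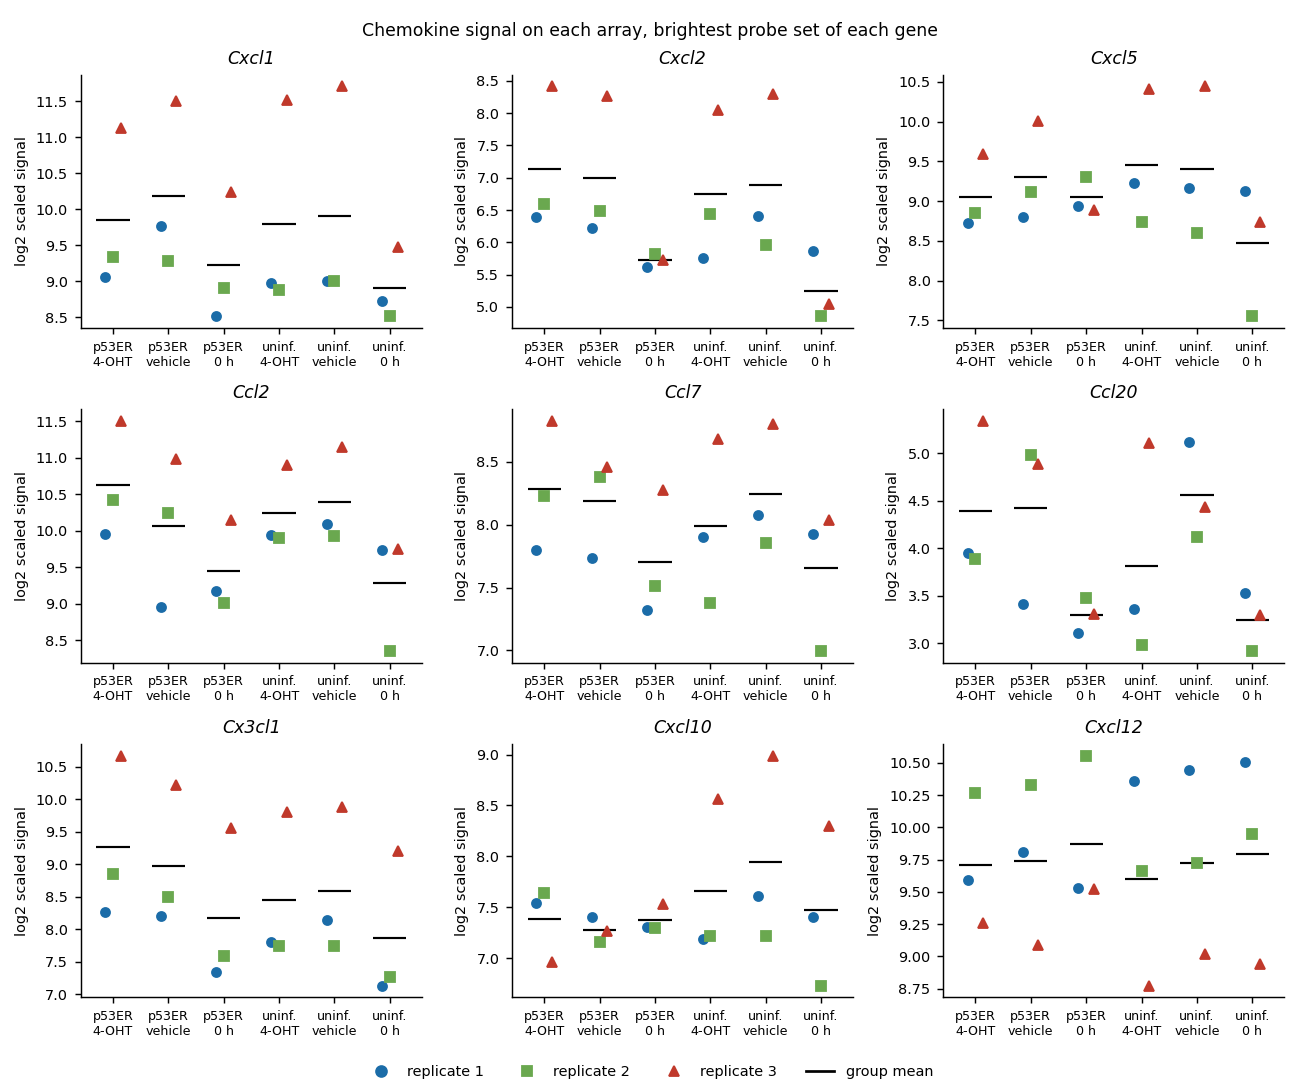
Log2 scaled signal (y axis) of the brightest probe set of each chemokine gene on every array, by group (x axis). Blue circles, green squares and red triangles are replicates 1, 2 and 3, and the bar is the group mean. The arrays numbered 3 lie highest in every group for Cx3cl1, from 9.20 to 10.67, and lowest in every group for Cxcl12, from 8.77 to 9.52.

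The 4 h arrays, both agents together, were set against the 0 h arrays to see which chemokine signals differed after the 4 h of incubation. Of the 8 chemokine genes tested, 7 were higher at 4 h, with a median log2 change of +0.68. Over all genes tested the median was -0.042, and 41.4% were higher. The chemokine genes were chosen with earlier results of these data known, so the 2 medians are set side by side as a description. The changes were +1.45 for Cxcl2, +0.97 for Ccl2, +0.87 for Cxcl1, +0.80 for Cx3cl1, +0.55 for Cxcl5 and +0.50 for Ccl7, against +0.14 for Cxcl10 and -0.14 for Cxcl12. None of the 8 passed an adjusted p of 0.05, which 0.0183% of all genes passed (limma, 2 genes). None of the 8 had all 12 arrays at 4 h above all 6 at 0 h, which held for 0.0733% of all genes. At an unadjusted p under 0.05, 2 of the 8 were higher (Cxcl2 and Ccl2) and 0 lower, against 3.38% of all genes higher.

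Among the neutrophil attractants, Cxcl2 had values of 6.40, 6.59 and 8.42 in replicates 1, 2 and 3 of p53ER cells with 4-OHT, 6.22, 6.48 and 8.26 with vehicle, and 5.62, 5.82 and 5.73 at 0 h. In uninfected cells it had 5.76, 6.43 and 8.05 with 4-OHT, 6.40, 5.96 and 8.29 with vehicle, and 5.86, 4.85 and 5.04 at 0 h. In p53ER cells every 4 h array lay above every 0 h array, and in uninfected cells the 4-OHT array of replicate 1 lay inside the 0 h range. The log2 change of Cxcl2 was +1.45 (SE 0.44, limma adjusted p = 0.357), a 2.73-fold difference. Within replicate numbers, Cxcl2 was higher at 4 h in 11 of 12 differences, each of a 4-OHT or a vehicle array from the 0 h array of its cell type and number. The 4 differences of each number averaged +0.46, +1.03 and +2.87 in replicates 1, 2 and 3. The 0 h arrays of uninfected replicate 2 (4.85) and p53ER replicate 3 (5.73) are among the 3 that lay apart. Without the arrays numbered 3 the change of Cxcl2 was +0.74 (limma adjusted p = 0.654).

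Cxcl1 had 9.06, 9.34 and 11.13 in replicates 1, 2 and 3 of p53ER cells with 4-OHT, 9.77, 9.28 and 11.51 with vehicle, and 8.52, 8.90 and 10.24 at 0 h. In uninfected cells Cxcl1 had 8.98, 8.87 and 11.52 with 4-OHT, 9.00, 9.00 and 11.71 with vehicle, and 8.72, 8.51 and 9.48 at 0 h. Within each cell type the 4 h and 0 h arrays overlapped, because the arrays numbered 3 were high at both times. Between cell types, uninfected 4-OHT replicate 2 (8.87) also lay below p53ER 0 h replicate 2 (8.90). Within replicate numbers Cxcl1 was higher at 4 h in 12 of 12 differences, from 0.26 to 2.24, and its probe sets 1457644_s_at and 1441855_x_at in 12 and 11. Across the arrays the log2 change of Cxcl1 was +0.87 (SE 0.53, limma adjusted p = 0.632). The differences averaged +0.58, +0.42 and +1.61 in replicates 1, 2 and 3. Cxcl5, the third neutrophil attractant, was higher within numbers in 6 of 6 differences in uninfected cells, which held for 7.32% of all genes, and in 2 of 6 in p53ER cells. In uninfected cells the differences of replicate 1 were 0.037 and 0.099. Those of replicate 2 were taken from a 0 h array (7.55) that is among the 3 that lay apart. The change of Cxcl5 was +0.55 (SE 0.32, limma adjusted p = 0.615).

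The monocyte attractant Ccl2 had 9.95, 10.42 and 11.51 in replicates 1, 2 and 3 of p53ER cells with 4-OHT, 8.96, 10.24 and 10.99 with vehicle, and 9.18, 9.01 and 10.14 at 0 h. In uninfected cells Ccl2 had 9.94, 9.90 and 10.90 with 4-OHT, 10.10, 9.93 and 11.15 with vehicle, and 9.74, 8.35 and 9.75 at 0 h. In uninfected cells both the 4-OHT and the vehicle arrays lay above every 0 h array, whereas the p53ER groups overlapped. The log2 change of Ccl2 was +0.97 (SE 0.34, limma adjusted p = 0.429), a 1.96-fold difference. Within replicate numbers Ccl2 was higher at 4 h in 11 of 12 differences, from -0.22 to 1.59. The lowest came from p53ER vehicle replicate 1, and the highest was taken from uninfected 0 h replicate 2. Both arrays are among the 3 that lay apart. The 4 differences of each number averaged +0.28, +1.45 and +1.19 for Ccl2 in replicates 1, 2 and 3. Ccl7, which lies in the same family and binds the same receptor, was also higher in 11 of 12 differences, from -0.025 to 0.87. Its change of +0.50 (SE 0.24) did not pass either (limma adjusted p = 0.549).

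Cx3cl1, on its brightest probe set, differed most evenly between replicate numbers. It had 8.26, 8.85 and 10.67 in replicates 1, 2 and 3 of p53ER cells with 4-OHT, 8.21, 8.50 and 10.22 with vehicle, and 7.35, 7.60 and 9.55 at 0 h. In uninfected cells Cx3cl1 had 7.80, 7.74 and 9.81 with 4-OHT, 8.15, 7.74 and 9.88 with vehicle, and 7.13, 7.26 and 9.20 at 0 h. The groups overlapped because the arrays numbered 3 stood higher in all of them. Within replicate numbers Cx3cl1 was higher at 4 h in 12 of 12 differences, from 0.48 to 1.25, and the differences averaged +0.87, +0.78 and +0.77 in replicates 1, 2 and 3. Across the arrays its change was +0.80 (SE 0.52, limma adjusted p = 0.654), a 1.75-fold difference. Its second bright probe set, 1415804_at, was higher in 10 of 12 differences, with a change of +0.42 (SE 0.53, limma adjusted p = 0.870 in the fit of every probe set). On 1415804_at the differences were less even, averaging +0.75, +0.052 and +0.46 in replicates 1, 2 and 3.

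Of the 8 tested chemokine genes, Cx3cl1 and Cxcl1 were higher in all 12 within-number differences, which held for 0.907% of all genes. The 12 differences share 6 arrays at 0 h and are not independent. The dim Ccl20 lay between 2.98 and 5.34 on the 4 h arrays and between 2.92 and 3.52 on the 0 h arrays, and was higher within numbers in 11 of 12 differences. Its change was +1.03 (SE 0.35, limma adjusted p = 0.514 in the fit of every probe set). Cxcl10 was higher in 8 of 12 differences, from -0.57 to 0.69, and Cxcl12 in 3 of 12, from -0.44 to 0.28. The changes of Cxcl10 (SE 0.28) and Cxcl12 (SE 0.31) had limma adjusted p = 0.901 and 0.906.

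**Figure D2:**
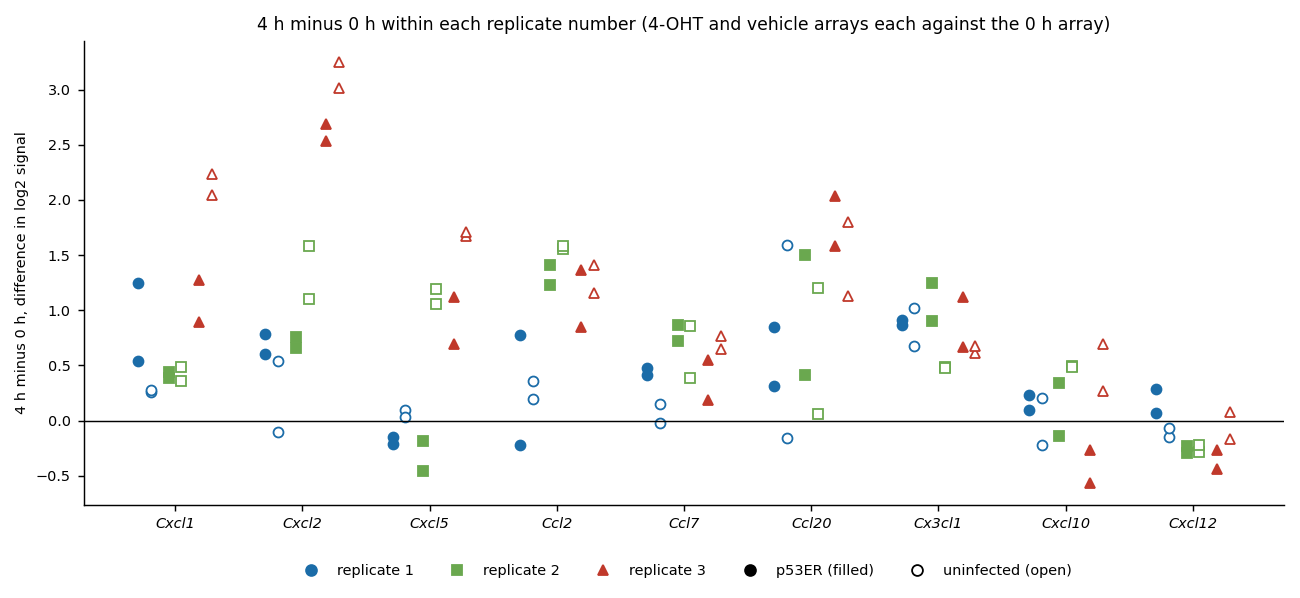
Difference in log2 signal between each 4 h array and the 0 h array of the same cell type and replicate number (y axis) for the chemokine genes (x axis). Each gene has 12 points, filled for p53ER and open for uninfected cells, and replicate 3 is in red. All 12 points of Cx3cl1 and Cxcl1 lie above 0, and the 4 red points of Cxcl2 lie from 2.53 to 3.25.

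Set against 0 h, p53ER cells with 4-OHT had log2 changes of +1.41 for Cxcl2 (SE 0.72), +1.18 for Ccl2 (SE 0.56) and +1.09 for Cx3cl1 (SE 0.85), with a limma adjusted p of 0.999 for each. None of the 8 tested chemokine genes passed, against 0.0183% of all genes. Cxcl2 was the tested chemokine gene for which all 3 of the 4-OHT arrays lay above all 3 of the 0 h arrays, which held for 4.56% of all genes. The same was true of the untested Ccl20. In these groups arrays of the same number deviated together. With the replicate number as a block 1 of the 8 passed, Cx3cl1 (same change, SE 0.15, limma adjusted p = 0.00803), against 0.174% of all genes. The block and its spread were fitted over all 6 groups, and between some other groups same-numbered arrays deviated apart (r down to -0.34). The check on these groups therefore does not cover the whole fit. The within-number differences of Cx3cl1 were +0.91, +1.25 and +1.12. On the probe set 1415804_at the change was +0.63 and did not pass with the block (limma adjusted p = 0.801 over all probe sets).

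In p53ER cells with vehicle against 0 h, the log2 changes were +1.26 for Cxcl2 (SE 0.72), +0.62 for Ccl2 (SE 0.56) and +0.81 for Cx3cl1 (SE 0.85), with a limma adjusted p of 1.00 for each. Within numbers Cx3cl1 was higher by +0.86, +0.90 and +0.66. In uninfected cells with vehicle against 0 h, Cxcl2 was higher by +1.63 (SE 0.72, limma adjusted p = 0.829), and all 3 vehicle arrays lay above the 0 h arrays for Cxcl2 and Ccl2, which held for 4.17% of all genes. In p53ER cells the vehicle arrays lay above the 0 h arrays for Cxcl2, against 2.4% of all genes, and in uninfected cells the 4-OHT arrays did so for Ccl2, against 4.65%. These comparisons share their 0 h arrays with those of 4-OHT. The difference of the 4 h change of Cx3cl1 between p53ER and uninfected cells was +0.29 (SE 1.04, limma adjusted p = 1.00).

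Setting 4-OHT against vehicle in p53ER cells addresses what active p53 did to chemokine transcripts within 4 h. The log2 changes ran from -0.34 for Cxcl1 to +0.57 for Ccl2. They were +0.28 for Cx3cl1, +0.15 for Cxcl2, +0.10 for Cxcl10, +0.095 for Ccl7, -0.036 for Cxcl12 and -0.25 for Cxcl5. In the fit without the replicate number, the SEs ran from 0.39 for Ccl7 to 0.86 for Cxcl1. These SEs hold the gap between the numbers, and every change lay near or within 1 SE of that fit. Leaving out 1 array moved the change of Ccl2 to between 0.016 (without vehicle replicate 1) and 1.03 (without vehicle replicate 3). These refits had no term for the replicate number, so the groups compared then held unequal sets of numbers. None of the 8 passed (limma adjusted p = 0.998 for each), against 0.0183% of all genes, and none had an unadjusted p under 0.05, against 3.22% of all genes. With the replicate number as a block 0 of the 8 passed and 8 genes of all passed, or 0.0733%. Of the 8 changes 5 were above 0, against 48.1% of all genes, and their median was +0.10, against -0.012 over all genes tested. The untested Ccl20 had -0.031 (SE 0.56, limma adjusted p = 1.00 in the fit of every probe set).

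Cx3cl1, Cxcl2 and Ccl2 were higher with 4-OHT in 3 of 3 within-number differences in p53ER cells, which held for 12.2% of all genes. Cxcl5 was lower in 3 of 3, which held for 16.1% of all genes. For Ccl2 the differences were +0.99, +0.18 and +0.52 in replicates 1, 2 and 3, and the first rests on p53ER vehicle replicate 1, which lay apart. For Cx3cl1 they were +0.046, +0.35 and +0.45, while on its probe set 1415804_at 2 of 3 were higher. In uninfected cells the log2 changes of the 8 genes with 4-OHT against vehicle ran from -0.28 for Cxcl10 to +0.055 for Cxcl5, and 1 of 8 was above 0, against 49.2% of all genes. Within numbers Cxcl1, Cxcl12, Ccl2 and Ccl7 were lower there in 3 of 3 differences, which held for 13.6% of all genes. None of the 8 was higher in 3 of 3. Ccl2 was at -0.15 (SE 0.56) and Cx3cl1 at -0.14 (SE 0.85), and none of the 8 passed (limma adjusted p = 1 for each). No gene at all passed in this comparison, a share of 0, and 84 genes (0.77%) had an unadjusted p under 0.05, of which 0 were chemokine genes. The difference of the 4-OHT change between p53ER and uninfected cells was +0.71 for Ccl2 (SE 0.79) and +0.42 for Cx3cl1 (SE 1.21), with a limma adjusted p of 1.00 for each. For Ccl2 this difference ran from 0.16 to 1.18 when the same 2 arrays were left out in turn, again without a term for the replicate number.

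**Figure D3:**
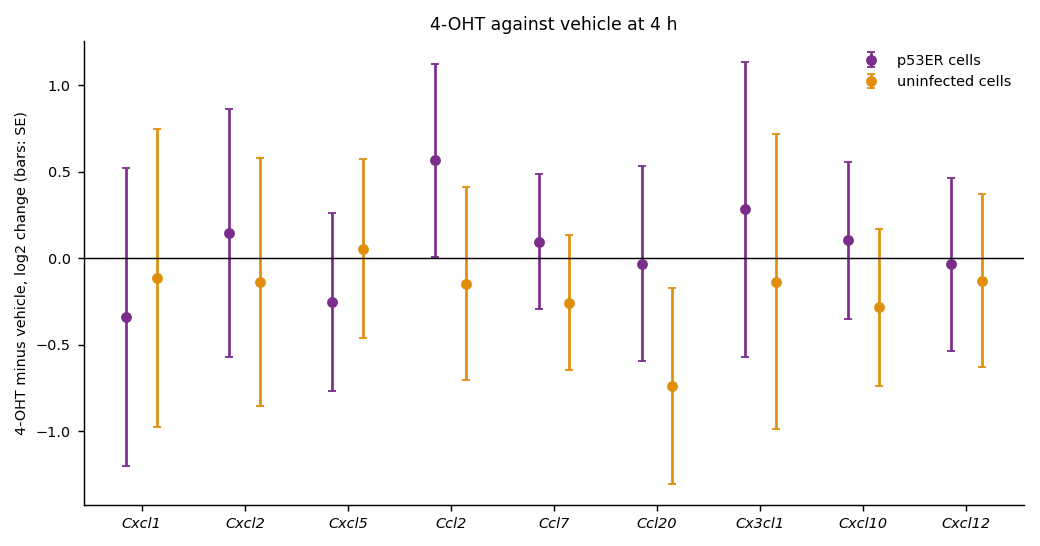
Log2 change with 4-OHT against vehicle at 4 h (y axis) for each chemokine gene (x axis) in p53ER cells (purple, left) and uninfected cells (orange, right). Points are the fitted changes and bars are 1 SE, in the fit without the replicate number. In p53ER cells the changes run from -0.34 for Cxcl1 to +0.57 for Ccl2, and no gene passed the test in either cell type.

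Over the 3 conditions together, p53ER cells were set against uninfected cells. Cx3cl1 had the largest change of the 8 tested chemokine genes, +0.50 (SE 0.49, limma adjusted p = 0.991), a 1.41-fold difference. Within condition and replicate number Cx3cl1 was higher in p53ER cells in 9 of 9 differences, from 0.067 to 1.10, and its probe set 1415804_at also in 9 of 9, from 0.0046 to 1.19. Of the 8 genes only Cx3cl1 was higher in 9 of 9, which held for 0.852% of all genes. The other changes were +0.32 for Cxcl2, +0.22 for Cxcl1, +0.097 for Ccl7, +0.071 for Ccl2, +0.065 for Cxcl12, +0.025 for Cxcl5 and -0.35 for Cxcl10. None of the 8 passed (limma adjusted p from 0.939 to 0.995), against 0.0458% of all genes. For Cxcl10 the arrays numbered 3 gave 6.96, 7.27 and 7.53 in p53ER cells with 4-OHT, with vehicle and at 0 h, against 8.56, 8.99 and 8.30 in uninfected cells in the same order. For Cxcl10 the arrays numbered 1 and 2 lay at 7.16 to 7.64 in p53ER cells and at 6.73 to 7.61 in uninfected cells. Whether this gap differs between replicate numbers was not tested.

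For Cx3cl1 the spread of the 3 arrays in each of the 6 groups held the gap between replicate numbers. Cx3cl1 averaged 9.26 ± 1.26 in p53ER cells with 4-OHT, 8.98 ± 1.09 with vehicle and 8.17 ± 1.21 at 0 h. In uninfected cells it averaged 8.45 ± 1.17 with 4-OHT, 8.59 ± 1.14 with vehicle and 7.86 ± 1.16 at 0 h (SD, n = 3 each). Neighbours in the order of these means differed by less than 1 SD. The highest mean, 9.26, lay above the highest array of the lowest group, 9.20 in uninfected cells at 0 h. For Cxcl2 the 4 h means ran from 6.75 to 7.13 with SDs from 1.11 to 1.24, and the 0 h means were 5.72 ± 0.10 in p53ER cells and 5.25 ± 0.53 in uninfected cells (SD, n = 3 each). For Ccl2 the 4 h means ran from 10.06 to 10.63, and the 0 h means were 9.44 ± 0.61 in p53ER cells and 9.28 ± 0.80 in uninfected cells. The uninfected 0 h group was lowest for 7 of the 9 genes: Cx3cl1, Cxcl1, Cxcl2, Cxcl5, Ccl2, Ccl7 and Ccl20. Its replicate 2, one of the 3 arrays apart, read 8.35 for Ccl2, 6.99 for Ccl7 and 2.92 for Ccl20. Its replicates 1 and 3 read 9.74 and 9.75, 7.93 and 8.03, and 3.52 and 3.30 for these genes. Those values lay above the p53ER 0 h means of 9.44, 7.70 and 3.29. Cxcl10 was lowest in p53ER cells with vehicle, and Cxcl12 in uninfected cells with 4-OHT. Cxcl12 averaged between 9.60 and 9.87 in all groups, with SDs from 0.51 to 0.79.

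The arrays numbered 3 were then set against those numbered 1 and 2, which the second principal component had separated. This split was seen in these same values. The p-values for it, here and below, describe its size and are not independent evidence that it exists. They also treat the arrays of a number as separate samples, which the labels do not state. With the group as a term, the arrays numbered 3 were higher than those numbered 1 and 2 for Cx3cl1, by a log2 change of +2.01 (SE 0.094), or 4.02-fold, and for Cxcl1 by +1.94 (SE 0.19), or 3.82-fold. Cxcl2 rose by +1.27 (SE 0.32), Ccl2 by +1.10 (SE 0.21), Cxcl5 by +0.83 (SE 0.24) and Ccl7 by +0.75 (SE 0.15), and Cxcl12 fell by 0.96 on the log2 scale (SE 0.19), or 1.94-fold. Thus 6 of the 8 tested chemokine genes were higher and 1 lower, against 10.6% of all genes higher and 10.6% lower. The adjusted p-values of limma were 1.9e-09 for Cx3cl1, 1.1e-05 for Cxcl1, 0.00174 for Ccl7, 0.00216 for Ccl2, 0.00297 for Cxcl12, 0.0128 for Cxcl2 and 0.0275 for Cxcl5. Cxcl10 was at +0.62 (SE 0.24, limma adjusted p = 0.0853) and the dim Ccl20 at +0.66 (SE 0.33, limma adjusted p = 0.293 in the fit of every probe set). The median change of the 8 was +0.97, against -0.0012 over all genes tested. The number separated the arrays, not a treatment, so batch and any difference between cultures cannot be told apart here. In RNA from whole cultures, fewer cells of a kind and less RNA per cell cannot be told apart either.

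For Cx3cl1 the 6 arrays numbered 3 lay between 9.20 and 10.67, with a mean of 9.89 ± 0.51 (SD, n = 6), and the other 12 between 7.13 and 8.85, with a mean of 7.88 ± 0.52 (SD, n = 12). These ranges did not overlap, which held in this direction for 1.89% of all genes. The probe set 1415804_at gave +1.77 (SE 0.15, limma adjusted p = 2.2e-07 in the fit of every probe set), and its ranges did not overlap either, while the dim 1421610_at and 1441884_x_at gave +0.65 and -0.20 and did not pass. For Cxcl1 the 3 probe sets gave +1.94, +2.01 and +1.57, and 2 of them, 1457644_s_at and 1441855_x_at, had no overlap. The Cxcl12 probe sets 1448823_at and 1417574_at fell by 0.96 and 0.49 on the log2 scale (limma adjusted p = 0.0352 over all probe sets for the second), and 1439084_at, near the offset, was at -0.53. On 1448823_at the arrays numbered 3 lay between 8.77 and 9.52, just below the other 12, which ran from 9.53 to 10.56. Such a gap downwards held for 2.4% of all genes. Set against each array of number 1 and 2 within its own group, the arrays numbered 3 were higher in 12 of 12 differences for Cx3cl1, Cxcl1, Ccl2 and Ccl7, which held for 5.21% of all genes, and lower in 12 of 12 for Cxcl12, which held for 5.32%. Cxcl2 was higher in 10 of 12, and Cxcl5 and Cxcl10 in 9 of 12. Among the genes with 12 of 12, the difference nearest to 0 was 0.0049 for Ccl2, 0.080 for Ccl7 and -0.0021 for Cxcl12. The 12 differences of a gene share the 6 arrays numbered 3 and are not independent.

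Cxcl2 and Cxcl5 did not follow the number at 0 h. Ccl2 barely did so in uninfected cells at 0 h, with 9.75 in replicate 3 against 9.74 and 8.35 in replicates 1 and 2. The 0 h arrays numbered 3 read 5.73 for Cxcl2 in p53ER cells and 5.04 in uninfected cells, against 5.62 and 5.82, and 5.86 and 4.85, in the other 0 h arrays of the same cells. At 4 h the arrays numbered 3 read 8.05 to 8.42 for Cxcl2, and the others 5.76 to 6.59. For Cxcl5 the arrays numbered 3 read 9.59 to 10.45 at 4 h, and 8.89 and 8.74 at 0 h in p53ER and uninfected cells. The arrays numbered 1 and 2 read 7.55 to 9.30 for Cxcl5 over both times. Whether the change with time differs between replicate numbers was not tested. The call of Cxcl5 was lost when any 1 of the 4 arrays numbered 3 at 4 h was left out (limma adjusted p from 0.0615 to 0.0911). Cxcl10 passed when the 4-OHT array of p53ER cells numbered 2 was left out (limma adjusted p = 0.0467) or the one numbered 3 (limma adjusted p = 0.00902).

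**Figure D4:**
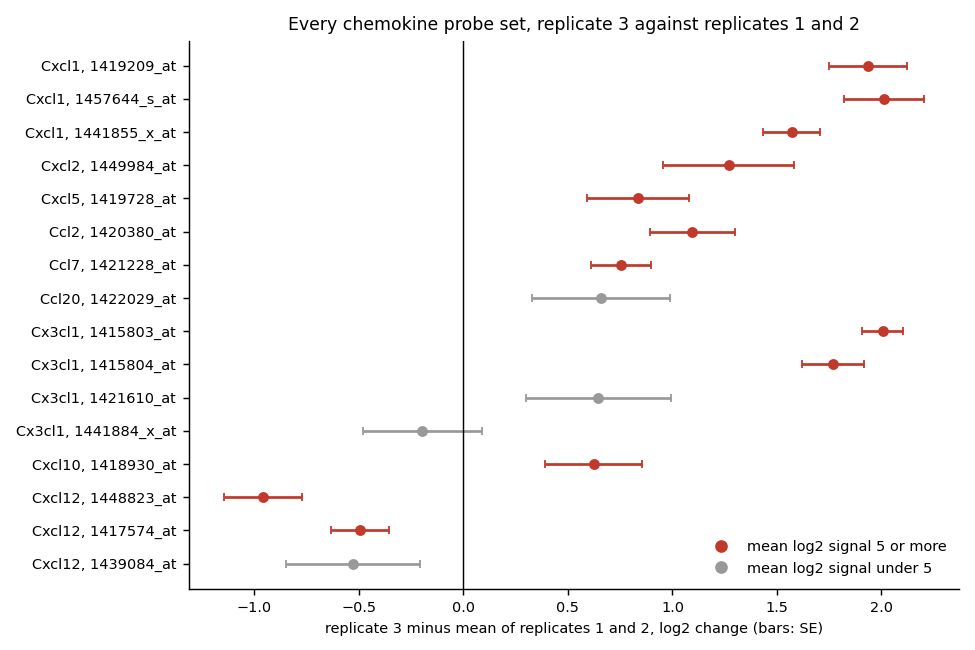
Log2 change of the arrays numbered 3 against those numbered 1 and 2 (x axis) for all 16 chemokine probe sets (y axis), with bars of 1 SE. Red points have a mean log2 signal of 5 or more and grey points one under 5. The bright probe sets of Cx3cl1 and Cxcl1 lie from +1.57 to +2.01, and all 3 of Cxcl12 lie below 0.

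Some cell type markers also differed with the replicate number, where 10.6% of all genes were higher and 10.6% lower. Of the 10 mesenchymal markers, 0 were higher and 5 lower in the arrays numbered 3, led by Pdgfrb, a growth factor receptor of mesenchymal cells, at -1.54 (SE 0.15, limma adjusted p = 3.5e-06), and Thy1, a fibroblast surface protein, at -0.92 (SE 0.13, limma adjusted p = 0.000134). Their summed signal was 44490 to 56119 in the arrays numbered 3 and 46524 to 72569 in the others. Of 6 blood and macrophage markers tested, 2 were higher and 1 lower, among them Cd14 at +0.72 (SE 0.11, limma adjusted p = 0.000258) and Csf1r at -0.44 (SE 0.11, limma adjusted p = 0.00968). The summed blood signal was 317 to 429 against 272 to 382, and over all arrays Cd14 averaged 6.75, Csf1r 6.33 and Cd68 5.36, while Ptprc and Itgam averaged 3.17 and 3.01. Of the 3 epithelial markers tested Epcam fell by 0.60 on the log2 scale (SE 0.17, limma adjusted p = 0.0215), and of the 2 endothelial ones Kdr fell by 0.48 (SE 0.13, limma adjusted p = 0.0157). The part of these markers in the chemokine differences was not tested.

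The other chemokine ligands on the array were mostly dim, and 12 of 26 were tested. In the arrays numbered 3, 4 of these 12 were higher and 0 lower, against 10.6% of all genes in each direction, and their median change was +0.30. Ccl5, a T cell and monocyte attractant, differed by +2.84 (SE 0.13, limma adjusted p = 1.1e-09), and Ccl9, a macrophage inflammatory protein of the mouse, by +0.57 (SE 0.12, limma adjusted p = 0.00277). At 4 h against 0 h none of the 12 passed and 3 were higher. Among them Ppbp, the platelet precursor of another neutrophil attractant, was at +0.58 (SE 0.35, limma adjusted p = 0.633), and Ccl25 at -0.55 (SE 0.29, limma adjusted p = 0.588). The median of the 12 at 4 h was -0.18, against +0.68 for the 8 chemokine genes described here. The genes and lists were chosen with earlier results of these data known, so this gap is a description and not a test. Only 6 of the 21 receptor genes were bright enough to be tested, and none passed at 4 h or in the arrays numbered 3.

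Of the 18 tested subunits and regulators of NF-kB, 9 were higher in the arrays numbered 3 and 0 lower, against 10.6% of all genes in each direction, with a median change of +0.35. They included Tnip1, an inhibitor of the pathway, at +0.86 (SE 0.10, limma adjusted p = 3.1e-05), and Nfkb2, a subunit of the factor, at +0.71 (SE 0.091, limma adjusted p = 5.9e-05). At 4 h against 0 h none of the 18 passed, and their median was +0.069. Tnfaip3, a deubiquitinase that limits NF-kB signalling, was at +0.65 (SE 0.13, limma adjusted p = 0.105), and Bcl3, a regulator of the p50 and p52 subunits, at -0.42 (SE 0.13, limma adjusted p = 0.370). With 4-OHT against vehicle in p53ER cells none of the 18 passed, and their median was +0.039.

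Of 8 tested genes of chemokine processing and mRNA decay, 1 was higher in the arrays numbered 3, a share near the 10.6% of all genes: Zfp36l1, which promotes decay of AU-rich mRNAs, at +0.35 (SE 0.12, limma adjusted p = 0.0470). At 4 h none passed. Ptgs2, the inducible cyclooxygenase, was at +1.37 (SE 0.36, limma adjusted p = 0.261), and Adam10, which sheds Cx3cl1, at +0.30 (SE 0.22, limma adjusted p = 0.694).

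**Figure D5:**
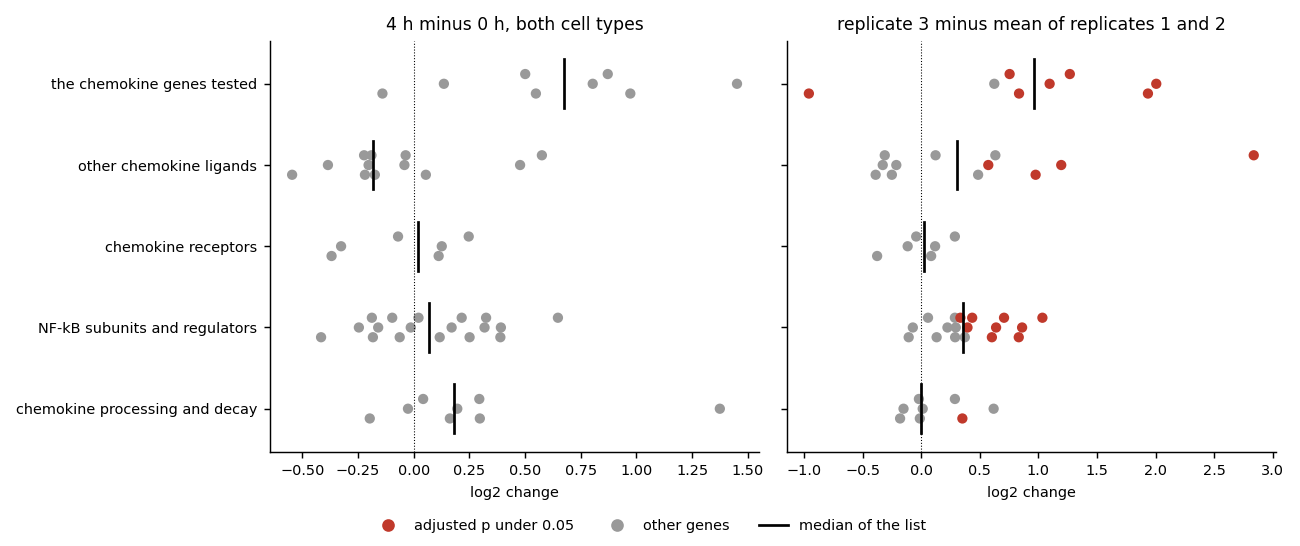
Log2 change (x axis) of each tested gene of 5 lists (y axis) at 4 h against 0 h in both cell types (left) and in the arrays numbered 3 against those numbered 1 and 2 (right). Red points passed an adjusted p of 0.05, and the black bar is the median of the list. The 8 chemokine genes have medians of +0.68 and +0.97, and 9 of 18 NF-kB genes are red on the right.

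Over the 18 arrays the genes whose log2 signal was most like a chemokine gene were read by Pearson's r among the 10916 tested, as a description. The arrays share groups and replicate numbers, which enter every such r. Cx3cl1 was followed most closely by Glrx (0.956), Cgref1 (0.952) and Smoc2 (0.945), and Cxcl1 by Sik3 (0.937), Vmp1 (0.934) and Plscr1 (0.934). Cxcl2 was followed by Mllt11 (0.908), Rap1b (0.897) and Gprc5a (0.877), and Cxcl5 by Tnfsf11 (0.894), Slc7a2 (0.877) and Hipk1 (0.860). Ccl2 was followed by Ereg (0.949), Rap1b (0.924) and Slc7a11 (0.924). Ccl7 was followed by Ccl2 itself (0.917), then by U90926 (0.899) and Dusp5 (0.873). Cxcl12, the gene that was lower in the arrays numbered 3, was followed by Serping1 (0.958), Igfbp2 (0.956) and Mfap5 (0.944). Cxcl10 had the weakest likeness, with Nsmce3 (0.779), Etfa (0.775) and Snhg17 (0.765).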

How the data were processed

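The authors deposited linear signal intensities for 18 arrays, made with MAS5 per the submitters' processing notes, with its version not given in the sources used here. All arrays were brought to the same 2% trimmed mean, 82.7, and log2(signal + 4.13) was used, the offset being 5% of that mean. Probe sets were named through the platform annotation, updated by Entrez ID to GRCm38.p6: 34958 of 45101 had 1 gene, 932 several and 9211 none listed. Each gene was read by its brightest probe set, and the upper 60% of genes by mean were tested. Group means were fitted with limma 3.58.1 (trended, robust prior; R 4.3.3), two-sided, with Benjamini-Hochberg adjustment over all 10916 genes within each of 11 comparisons. With 3 arrays against 3, the smallest exact permutation p is 0.1. The fit for replicate 3 had group as a term. Fitting was tested on simulated data.

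The members, lists and tests were chosen with earlier results of these data known. Named were all members, Mdm2, Pmaip1, up to 2 genes per other list and comparison (smallest p among those that passed, otherwise largest change), and the 3 genes most like each member. Deviations of same-numbered arrays correlated above 0.1 in every pair in p53ER 4-OHT against vehicle (r 0.21 to 0.45), uninfected 4-OHT against vehicle (0.31 to 0.62) and p53ER 4-OHT against 0 h (0.27 to 0.47), which is a check from the data, since the meaning of a number is not labelled. Alternatives were quantile normalization, no offset or one of 20%, no filter or the upper 40%, all probe sets, the replicate block, a plain variance prior, and leaving out each array, the 3 arrays apart or the arrays numbered 3. The block without the 3 arrays apart was added after seeing the data.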

Additional observations from a re-analysis of the deposited data

How the results depend on the processing

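The number of chemokine genes past the threshold stayed within 1.5 times of the reported one in every comparison except with the replicate block. With it, 1 of the 8 (Cx3cl1) instead of 0 passed at 4 h against 0 h, in p53ER 4-OHT against 0 h, and in p53ER against uninfected cells (limma adjusted p = 0.00163, 0.00803 and 0.0303). With the block and without the 3 arrays apart, 2 passed at 4 h against 0 h (Cx3cl1 and Ccl2), 1 in p53ER 4-OHT against 0 h, and 0 in p53ER against uninfected cells (Cx3cl1, limma adjusted p = 0.0526). The block changed no other chemokine call. At 4 h against 0 h and in p53ER against uninfected cells, some same-numbered arrays deviated apart (r down to -0.34), and 14 of 18 arrays correlated best with their own number. Tnfaip3 passed at 4 h with the block (limma adjusted p = 0.0414). Of all genes, 65 passed with the block at 4 h against 0 h instead of 2 (0 to 9 under other settings that keep all or leave out several arrays, 93 with the block and without the 3 arrays apart). In p53ER 4-OHT against 0 h, 19 passed instead of 2 (1 to 7, and 26). In p53ER 4-OHT against vehicle 8 passed instead of 2 (1 to 4, and 9), and in p53ER against uninfected cells 23 instead of 5 (4 to 10, and 42). For replicate 3, 6 to 8 chemokine genes passed when arrays were left out in turn, and 6 with all probe sets (Cxcl5, limma adjusted p = 0.0598). In every other comparison 0 passed under each array left out.

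Changes that turned sign were small ones that did not pass, and the cause was not tested. Without the 3 arrays apart, the groups compared no longer held the same replicate numbers. For Cx3cl1 in p53ER 4-OHT against vehicle, the within-number differences were +0.046, +0.35 and +0.45. In p53ER 4-OHT against vehicle, without the 3 arrays apart, Cx3cl1 was at -0.098, Cxcl2 at -0.24 and Ccl7 at -0.13. With the block as well, Cxcl2 was at -0.027 and Ccl7 at -0.036. Ccl7 was at -0.042 without the arrays numbered 3, and Cxcl12 at 0.0093 with quantile normalization. At 4 h against 0 h, Cxcl10 was at -0.030 without the 3 arrays apart and at -0.12 with the block as well. In p53ER against uninfected cells, Cxcl5 was at -0.016, Ccl2 at -0.017 and Ccl7 at -0.032 without the 3 arrays apart. Without the arrays numbered 3, Cxcl10 was at 0.16, Cxcl12 at -0.093 and Ccl2 at -0.033.

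Apart from the fit for replicate 3, the refits without 1 array had no term for the replicate number. Each left the numbers unequal between groups. Leaving out each array in turn kept direction and call in 803 of the single-gene values and turned 55, whose ranges follow. In p53ER 4-OHT against vehicle they were Cx3cl1 -0.42 to 0.90, Cxcl1 -0.98 to 0.32, Cxcl2 -0.50 to 0.78, Cxcl5 -0.52 to 0.098, Cxcl10 -0.027 to 0.31, Cxcl12 -0.36 to 0.26, Ccl7 -0.18 to 0.34 and Ccl20 -0.54 to 0.24. In uninfected 4-OHT against vehicle, Cx3cl1 ran from -0.81 to 0.51 and Ccl2 from -0.48 to 0.23. The difference of the 4-OHT change for Cx3cl1 ran from -0.29 to 1.10 and that of the 4 h change from -0.37 to 0.99. At 4 h against 0 h, Cxcl10 ran from -0.052 to 0.34 and Cxcl12 from -0.35 to 0.037. In p53ER against uninfected cells the ranges were Cxcl1 -0.0014 to 0.52, Cxcl5 -0.13 to 0.20, Cxcl12 -0.078 to 0.19, Ccl2 -0.084 to 0.25 and Ccl7 -0.013 to 0.21. Signals of Ccl20 and of the other probe sets near the offset are limited by background.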
